A study of Mus musculus with 4 samples.

Results

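The genes examined were 38 genes of lipid, cholesterol and fatty acid metabolism, taken from a list by name, and 38 of 38 were among the 13838 genes of the unique molecular identifier (UMI) count matrix. The list was divided by function into 5 genes of lipid uptake and lipoproteins, 5 of droplet storage and esterification, 3 of lipid hydrolysis, 4 of efflux, oxysterol and liver X receptor (LXR) control, 6 of fatty acid synthesis and desaturation, 10 of sterol synthesis and its control, and 5 of fatty acid oxidation. The cells came from bronchoalveolar lavage, the fluid washed out of the airways and alveoli, of C57BL/6 mice. The submitters assigned each cell to 1 of 17 refined cell types, of which 10 are numbered macrophage clusters.

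Each of the 4 libraries was made from the pooled lavage of 7 mice, so each group is 1 library and no difference between groups has a replicate check. All mice first breathed either filtered air or aerosolized Afghanistan particulate matter (APM), a desert dust, at 5 mg/m3 for 6 hours a day over 12 days, and then received intranasal phosphate-buffered saline (PBS) or house dust mite extract (HDM), an allergen. The control library had filtered air and PBS, the HDM library filtered air and HDM, the APM library APM and PBS, and the HDM+APM library both agents. PBS or 10 µg of HDM was given to sensitize on days 22 and 29, with challenges on days 36, 37 and 38 before the lavage on day 39. Cell viability was 60 to 80%, and the sources used here do not give the age or sex of the mice.

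Alveolar macrophages take up and break down pulmonary surfactant, the film of phospholipid, cholesterol and protein that lines the alveoli. Lipoprotein lipase releases fatty acids from triglyceride, lysosomal acid lipase hydrolyses cholesteryl esters and triglyceride in the lysosome, and the freed fatty acids and cholesterol are stored in droplets, oxidised in mitochondria or exported. Excess cholesterol gives rise to oxysterols, which activate LXR and with it the cholesterol exporters Abca1 and Abcg1. Low sterol in the endoplasmic reticulum has the opposite sense: it releases the transcription factor made from Srebf2, which switches on the enzymes of cholesterol synthesis, while Insig1 holds that factor back.

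The libraries differed in cell make-up and depth. The control library held 3918 cells and 15170333 UMIs, the HDM library 994 cells and 1920648 UMIs, the APM library 3890 cells and 11355310 UMIs, and the HDM+APM library 1123 cells and 5197132 UMIs. Median UMIs per cell were 3417, 1380, 2637 and 4780 in that order, and 29.4% of HDM cells had under 1000 UMIs, against 1.25% to 5.88% in the others. Of the barcodes, 42 occurred in more than 1 library, in 84 of the 9925 cells. Levels are given as CPM, a gene's share of all UMIs scaled as counts per 1000000,, from UMIs summed over the cells of a cluster or library. Intervals are at the 95% level, cover the error of counting molecules alone, and say nothing of variation between mice or libraries.

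The cluster names were checked against marker genes. The cells named classical monocyte, 308 cells that all came from the HDM+APM library, were led by Alox15, Prg4, Saa3, Cd5l and C1qc. A list for macrophages of the body cavities summed to 4929 CPM in them, with 7 of 7 genes detected. All 7 were also detected in T cells, B cells and alveolar macrophages, at summed 79.24, 148.7 and 6.797 CPM. In the cells named classical monocyte, 9 of 9 genes of a classical monocyte list were detected too, at a summed 18323 CPM. An alveolar macrophage list summed to 11387 CPM in them, and a list for monocyte-derived or interstitial macrophages, which holds Apoe, to 9744 CPM. Genes of a red blood cell list summed to 326249 CPM in the cells named epithelial, above the epithelial list at 121158 CPM. Both are therefore called here by the submitters' name only, as "cells named classical monocyte" and "cells named epithelial".

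Promoters of 28 of the 38 genes were matched in RefSeq (GRCm38.p6), as 300-base windows from 250 bases before to 50 after each start. The NF-Y box CCAAT, searched on both strands, was present in the window of 7 of 7 matched sterol synthesis genes (Cyp51, Hmgcs1, Idi1, Insig1, Lss, Sc5d and Srebf2), against 37.4% of all 32851 windows and 16 of 35 windows (45.7%) over the matched lipid genes. In a wider list of sterol synthesis genes outside the 38, it was present in 11 of 20 windows (55.0%). The sterol regulatory element core TCACNCCAC, a binding motif of the Srebf factors, was found in Hmgcs1 and in no other of the 28 matched genes, in Acsl1 and Mlxipl of the wider list of lipid genes, and in 1.24% of all windows. The stretches below are shown because these genes recur in the macrophage results. They lie upstream of the start, overlap no annotated exon, and carry the CCAAT box, here read as ATTGG, and the element core in capitals. All are written 5′ to 3′ on the gene's own strand, which is the minus strand for Sc5d and the plus strand for the others.
Hmgcs1 (chr13:119690101-119690344): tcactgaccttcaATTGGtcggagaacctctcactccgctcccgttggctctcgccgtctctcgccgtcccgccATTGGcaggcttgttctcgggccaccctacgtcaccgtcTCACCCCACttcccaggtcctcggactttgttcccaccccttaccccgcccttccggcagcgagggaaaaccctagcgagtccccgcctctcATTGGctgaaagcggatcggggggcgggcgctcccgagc
Insig1 (chr5:28071166-28071234): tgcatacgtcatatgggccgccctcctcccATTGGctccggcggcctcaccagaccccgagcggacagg
Sc5d (chr9:42264301-42264354): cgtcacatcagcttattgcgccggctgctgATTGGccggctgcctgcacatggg
Lss (chr10:76531513-76531581): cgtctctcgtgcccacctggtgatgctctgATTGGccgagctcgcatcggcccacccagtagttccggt
Srebf2 (chr15:82147104-82147172): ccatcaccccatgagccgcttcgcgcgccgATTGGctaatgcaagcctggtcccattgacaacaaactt
The Hmgcs1 stretch carries 3 CCAAT boxes and the single element core, and each of the others carries 1 CCAAT box. Direct repeats of AGGTCA spaced by 4 bases (an LXR element) and by 1 base (a PPAR element) were found in none of the matched lipid gene windows and in 0.0152% and 0.0396% of all windows. The E-box CACGTG was present for Insig1, Sc5d, Abca1, Mgll and Plin2, against 7.15% of all windows.

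Lipid gene UMIs were concentrated in the macrophage clusters. The 38 genes together took between 3839 CPM (Macrophage 10) and 6615 CPM (Macrophage 5) in the macrophage clusters, 3080 CPM in the cells named classical monocyte, 2045 CPM in dendritic cells, 2042 and 839.5 CPM in the B cell clusters and 814.4 CPM in T cells. The highest level over the 17 cell types fell in a macrophage cluster for 27 of the 38 genes. Of the 17 cell types 10 are macrophage clusters, and the share over all genes was not computed. This count is therefore not read as a trait of lipid genes. The cells named classical monocyte held the highest level of 5 genes, dendritic cells of 2, and T cells, B cells 1, granulocyte-like cells and the cells named epithelial of 1 each. The heat map of levels by cluster shows these exceptions beside the macrophage block.

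**Figure D1:**
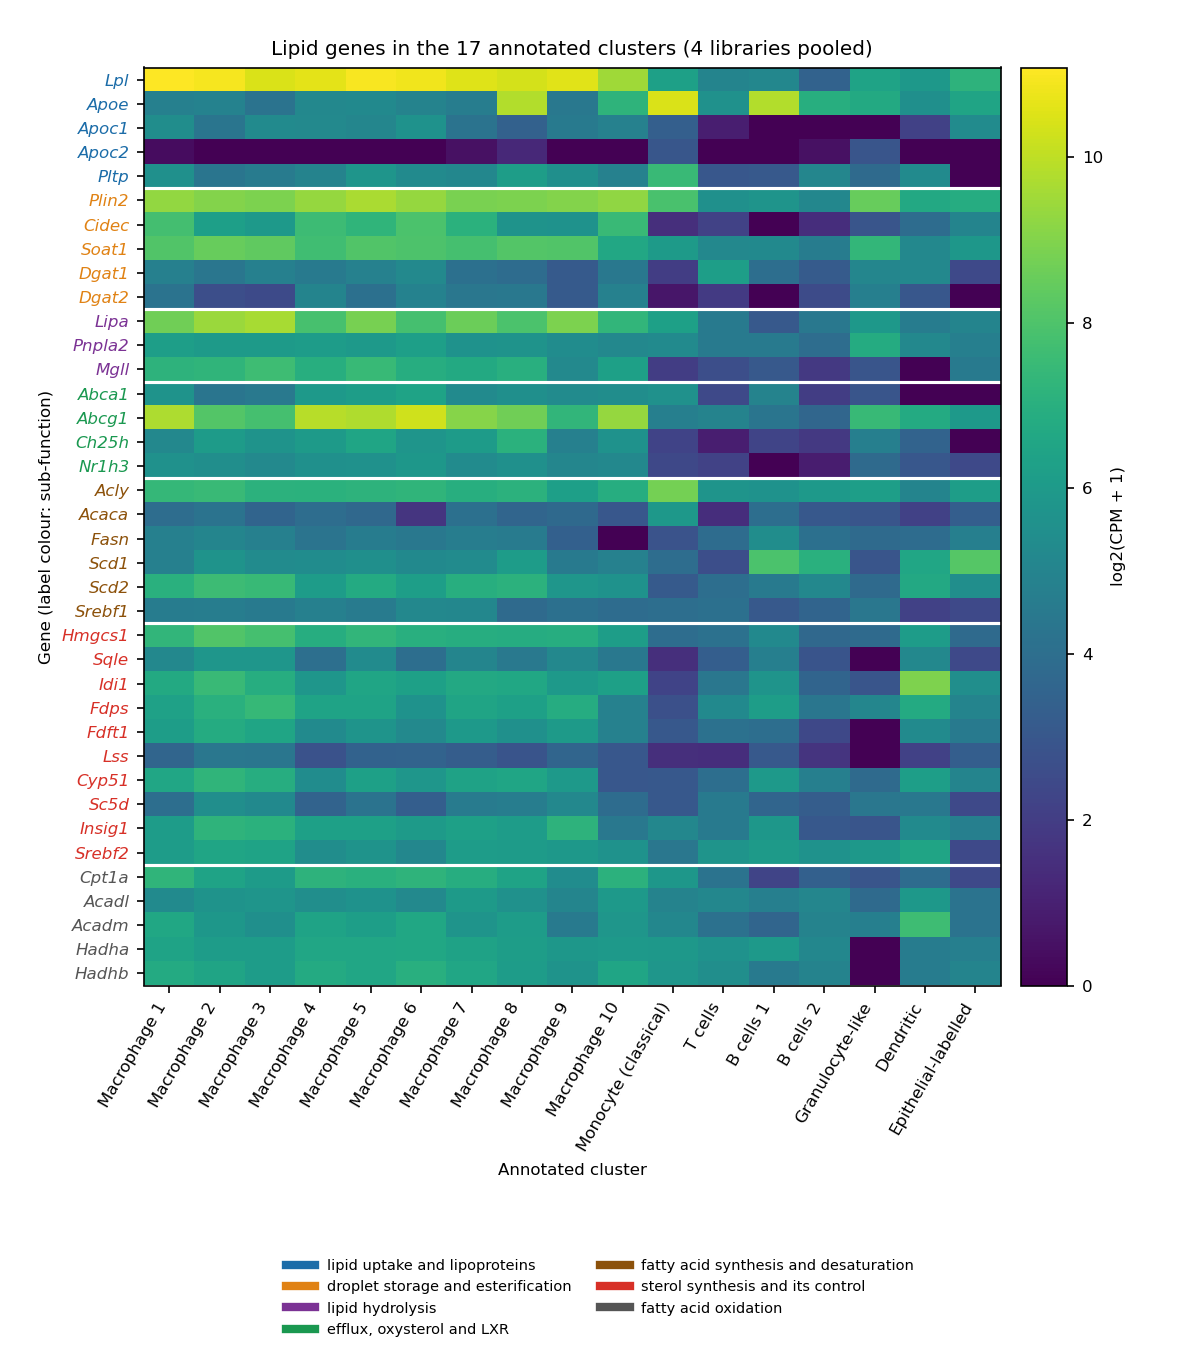
Level of each of the 38 lipid genes (rows, grouped by function) in each of the 17 cell types (columns), as log2(CPM + 1) of UMIs summed over all 4 libraries. Lpl, Plin2, Abcg1 and Lipa are high across the macrophage clusters, while Apoe stands out in Macrophage 8, B cells 1 and the cells named classical monocyte, and Idi1 in dendritic cells.

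Of the uptake and lipoprotein genes, Lpl (lipoprotein lipase, chromosome 8, 68880491 to 68907448, plus strand) had a UMI in 76.6% of all cells. Its level was 720.2 CPM in Macrophage 10 and between 1335 and 2165 CPM in the other macrophage clusters, against 78.7 CPM in the cells named classical monocyte and 10.3 CPM in B cells 2. Its lowest macrophage level was thus above every level outside the macrophages, of which the highest was 141.3 CPM in the cells named epithelial. Apoe, the lipoprotein ligand for cell uptake (chromosome 7, 19696109 to 19699188, minus strand), had another distribution. It stood at 1421 CPM in the cells named classical monocyte, 896.0 CPM in B cells 1, 888.1 CPM in Macrophage 8 and 123.5 CPM in B cells 2, but between 17.5 and 146.8 CPM in the other 9 macrophage clusters. Pltp, which transfers phospholipid between lipoproteins, reached 178.7 CPM in the cells named classical monocyte and 71.8 CPM in Macrophage 8. Apoc2, an activator of lipoprotein lipase, had 17 UMIs in all cells together, too few to compare.

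Of the storage genes, Plin2, a coat protein of lipid droplets, was highest in Macrophage 5 at 815.0 CPM and between 466.0 and 650.6 CPM in the other macrophage clusters. Outside the macrophages it was highest in granulocyte-like cells, at 357.0 CPM. Cidec, which enlarges droplets by fusion, varied more among the macrophage clusters, from 49.2 CPM in Macrophage 9 to 242.1 CPM in Macrophage 6. Soat1, which esterifies cholesterol for storage, ran in another order: it was highest in Macrophage 2 at 358.5 CPM and Macrophage 3 at 326.6 CPM, and lowest in Macrophage 10 at 97.9 CPM. Dgat1, which makes triglyceride, was the 1 member of the list that was highest in T cells, at 73.1 CPM against 7.9 to 36.4 CPM in the macrophage clusters.

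Lipa (lysosomal acid lipase, chromosome 19, 34492318 to 34527474, minus strand) ranged from 153.8 CPM in Macrophage 10 to 689.9 CPM in Macrophage 2 and 781.2 CPM in Macrophage 3. Its neighbour Ch25h, the enzyme that makes the oxysterol 25-hydroxycholesterol (chromosome 19, 34473778 to 34475164, minus strand), was highest in Macrophage 8 at 133.2 CPM and at most 90.5 CPM in the other macrophage clusters. Mgll, which cleaves monoglyceride, was highest in Macrophage 3 at 196.4 CPM. Abcg1, a cholesterol exporter (chromosome 17, 31057675 to 31117988, plus strand), spanned the widest range of the efflux genes, from 157.1 CPM in Macrophage 9 to 1234 CPM in Macrophage 6. Abca1, the exporter to lipid-poor apolipoprotein, was also highest in Macrophage 6, at 84.7 CPM, and had its lowest macrophage level in Macrophage 2, at 18.8 CPM.

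Outside the macrophages a few synthesis genes reached their highest level. Acly, which makes cytosolic acetyl-CoA, stood at 434.8 CPM in the cells named classical monocyte against 74.6 to 179.5 CPM in the macrophage clusters, and Acaca, the first committed enzyme of fatty acid synthesis, at 58.6 CPM there. Scd1, a fatty acid desaturase, was at 287.0 CPM in the cells named epithelial, 242.0 CPM in B cells 1 and 130.8 CPM in B cells 2, above its 22.2 to 68.3 CPM in the macrophage clusters. Idi1, an isomerase of the mevalonate pathway, was at 486.0 CPM in dendritic cells. That level was present in each library: 404.9 CPM in control (5 cells), 530.4 CPM in HDM (38 cells), 423.7 CPM in APM (23 cells) and 493.0 CPM in HDM+APM (10 cells), and 54 of the 76 dendritic cells had an Idi1 UMI. Acadm, a fatty acid oxidation enzyme, was also highest in dendritic cells, at 197.9 CPM. Scd1 and Scd2 are paralogs, and the sources used here do not say how reads that match both were assigned.

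Within the macrophages the summed levels of the functions ranked the clusters differently. The summed efflux genes were highest in Macrophage 6 (1429 CPM), Macrophage 4 (1121 CPM), Macrophage 5 (1069 CPM) and Macrophage 1 (969.7 CPM), and lowest in Macrophage 2 (407.2 CPM), Macrophage 3 (332.3 CPM) and Macrophage 9 (257.1 CPM). Fatty acid oxidation genes had nearly the same order, from 499.9 CPM in Macrophage 6 down to 302.1 CPM in Macrophage 3 and 203.1 CPM in Macrophage 9. The sterol synthesis sum ran from 1200 CPM in Macrophage 2 and 1059 CPM in Macrophage 3 to 478.3 CPM in Macrophage 6 and 321.7 CPM in Macrophage 10, and the hydrolysis sum from 1043 CPM in Macrophage 3 and 906.0 CPM in Macrophage 2 to 417.4 CPM in Macrophage 6 and 265.7 CPM in Macrophage 10. By these sums, Macrophages 4 and 6 were thus high in efflux and oxidation and low in sterol synthesis and hydrolysis, and Macrophages 2 and 3 the reverse. The efflux and hydrolysis sums rest largely on single genes: Abcg1 alone was at 1234 CPM in Macrophage 6, and Lipa alone at 781.2 CPM in Macrophage 3. Not every gene followed its sum. Pnpla2 was highest among the macrophage clusters in Macrophage 6. Ch25h was higher in Macrophage 2, and Acadl in Macrophages 2 and 3, than in Macrophages 4 and 6. Macrophages 1 and 5 were high in efflux and oxidation genes but in the middle of the other orders, with sterol sums of 698.0 and 661.7 CPM, and Macrophage 10 was in the middle for efflux and lowest for sterol synthesis and hydrolysis. The plot of summed levels by macrophage cluster shows these orders.

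**Figure D2:**
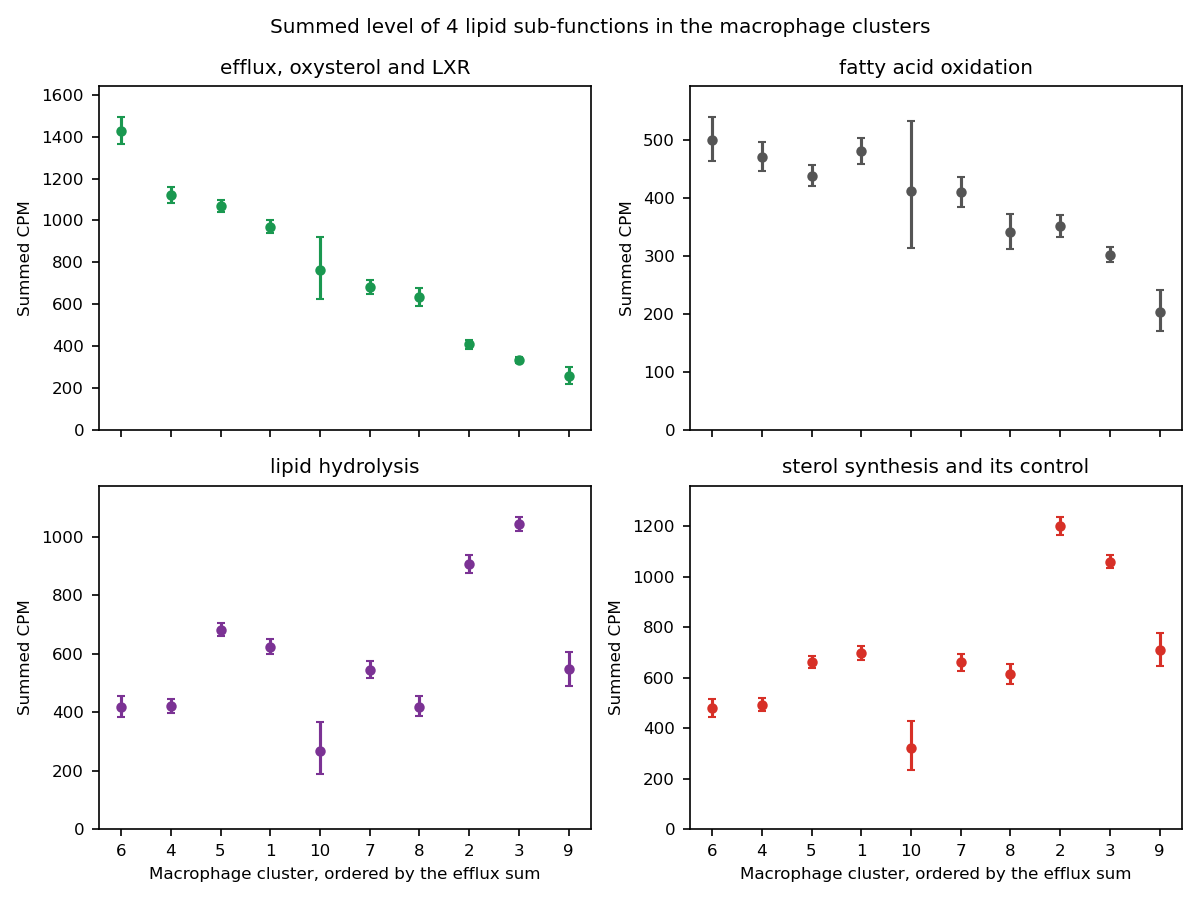
Summed level (CPM) of the efflux, oxidation, hydrolysis and sterol synthesis genes in the 10 macrophage clusters, ordered by the efflux sum. Points are UMIs summed over all libraries and bars are 95% Poisson intervals for counting error. Efflux drops from 1429 CPM in Macrophage 6 to 257.1 CPM in Macrophage 9, while sterol synthesis is highest in Macrophages 2 and 3.

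As a description over the 10 clusters, which share libraries and differ in depth, Spearman's rho was 0.95 between the efflux and oxidation sums, 0.93 between the hydrolysis and sterol sums and -0.67 between the efflux and sterol sums. It was -0.45 between the hydrolysis and efflux sums, -0.36 between the hydrolysis and oxidation sums and -0.04 between Abcg1 and Hmgcs1. With the clusters' median UMIs per cell, rho was -0.55 for efflux, -0.56 for oxidation, 0.59 for sterol and 0.65 for hydrolysis. The part of depth in this order was not tested. The genes whose levels followed Abcg1 most closely were Cidec (0.90), Cpt1a (0.89), the gate of mitochondrial fatty acid import, and Hadhb (0.88), a subunit of the mitochondrial trifunctional protein. Sc5d, a late enzyme of cholesterol synthesis, ran most opposite to it, at -0.90. Cidec was among the 10 leading genes of Macrophage 1, and Abcg1 of Macrophages 5 and 6. Lipa, Hmgcs1, Idi1, Fdft1, Cyp51 and Insig1 were among the 50 leading genes of Macrophage 2, and Lipa among those of Macrophage 3. For these genes the order is in part what separates the clusters.

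Several clusters belong almost wholly to 1 library: 92.8% of Macrophage 1 and 82.1% of Macrophage 3 cells were control cells, and 97.6% of Macrophage 4 and 93.5% of Macrophage 6 cells were APM cells. In Macrophages 4 and 6, which had 22 and 42 control cells, cell state and library cannot be told apart. Macrophages 1 and 3 had 94 and 179 APM cells, in which the libraries were compared. Macrophages 2 and 5 held many cells of both libraries, and their order was the same in each library for an exporter and for a sterol gene. Abcg1 was at 883.5 CPM in APM cells and 841.8 CPM in control cells of Macrophage 5, against 271.5 and 283.1 CPM in Macrophage 2. Hmgcs1, which opens the mevalonate pathway, was at 151.7 and 165.3 CPM in Macrophage 5 and at 270.4 and 269.4 CPM in Macrophage 2. For these genes the clusters lay further apart than the libraries within each. Abcg1 is among the leading genes of Macrophage 5 and Hmgcs1 among those of Macrophage 2. The clusters were made from the same expression values, so no conclusion is drawn from this.

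Whole libraries, which differ in cell make-up, were described first. The 38 genes summed to 6069 CPM in control, 5685 CPM in APM, 3026 CPM in HDM and 2189 CPM in HDM+APM. Lpl was at 1808 CPM in control, 1608 CPM in APM, 739.9 CPM in HDM and 199.9 CPM in HDM+APM. Abcg1 was at 506.7 CPM in control, 702.7 CPM in APM, 236.9 CPM in HDM and 72.73 CPM in HDM+APM. Apoe had the reverse order, with 29.99 CPM in control, 96.69 CPM in APM, 259.8 CPM in HDM and 561.8 CPM in HDM+APM. By the annotation, Macrophages 1 to 7, 9 and 10 supplied 3775 alveolar macrophage cells in control, 3492 in APM, 60 in HDM and 46 in HDM+APM. Macrophage 8 supplied 107, 205, 139 and 109 in that order. A whole-library level mixes this make-up with the level per cell, so levels within macrophage classes are given below.

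In the order control, HDM, APM and HDM+APM, the droplet genes Plin2 and Cidec were at 563.2, 228.6, 619.1 and 155.7 CPM and at 128.9, 15.62, 138.0 and 9.813 CPM, and Soat1 at 287.8, 156.2, 263.7 and 71.19 CPM. The hydrolysis genes Lipa, Mgll and Pnpla2 were at 607.2, 129.6, 365.4 and 78.89 CPM, at 165.5, 73.41, 128.1 and 23.28 CPM, and at 68.62, 33.84, 58.74 and 29.82 CPM. All 6 were lower in both libraries of HDM-treated mice than in both others. Abca1 was at 37.24, 24.99, 51.61 and 24.63 CPM, and Ch25h at 49.37, 69.25, 71.6 and 22.13 CPM. Of the sterol genes, Hmgcs1 was at 193.2, 54.67, 152.4 and 33.1 CPM, Idi1 at 120.8, 93.72, 91.41 and 26.17 CPM, and Fdps at 113.1, 52.59, 103.4 and 29.82 CPM, with the lowest level of each in HDM+APM. Of the oxidation genes, Cpt1a was at 106.6, 43.74, 111.4 and 35.6 CPM, Hadhb at 85.5, 49.98, 96.08 and 43.1 CPM, and Hadha at 82.27, 42.69, 75.74 and 53.3 CPM. Highest in HDM+APM were Acly, at 151.4, 92.16, 132.1 and 194.7 CPM, Scd1, at 34.41, 70.29, 48.17 and 83.32 CPM, and Pltp, at 37.97, 18.74, 30.65 and 86.01 CPM. Scd2 was at 153.7, 90.59, 93.96 and 45.22 CPM. To separate these levels from cell make-up, the libraries were compared within macrophage classes.

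Macrophage 8 supplied 107 control, 139 HDM, 205 APM and 109 HDM+APM cells that the submitters also typed as alveolar macrophages, and Macrophages 1 to 7, 9 and 10 were pooled as a second class. In that class the HDM+APM library had 46 cells, under the minimum of 50, so only its values are given. A gene was called measured where its UMIs over the pair of libraries came to 20 or more, and higher or lower where log2(CPM + 10) differed by at least 1.5-fold. The comparisons share libraries, the control library in particular, so their values are set side by side and not counted against each other.

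In Macrophage 8, HDM against control, 29 of the 38 genes were measured. Of these 8 were higher, against 22.4% of all 3949 genes measured there, and 5 were lower, against 16.0% of all genes. The genes that were higher were Ch25h, Idi1, Acadl, Scd1, Cyp51, Acly, Mgll and Scd2, and those lower were Cidec, Sqle, Apoe, Fdps and Hadhb. Over the 29 genes the median log2 ratio was -0.05, beside 0.04 over all genes. With cells thinned to 1000 UMIs, 12 genes were measured. Of these 5 were higher, all among the 8 above, against 23.2% of all genes, and 2 were lower, Lipa and Abcg1, against 17.5% of all genes. None of the 5 lower genes above was then called: Apoe was at -0.54 and the other 4 had too few UMIs. Of the fatty acid synthesis and desaturation genes, 3 of 3 measured were higher. Among the wider list's other lipid genes, 6 of 35 measured were higher, led by Acsl4 (1.49), which activates long fatty acids, and 3 were lower, led by Slc25a1 (-1.13), the mitochondrial citrate carrier.

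Ch25h had the largest ratio of the list. Its Macrophage 8 level was 21.36 CPM in control (3 UMIs), 72.96 CPM in APM, 127.7 CPM in HDM+APM and 224.3 CPM in HDM (103 UMIs), so HDM was 10.5-fold above control (3.49 to 51.8) and all 3 exposed libraries were above it. The share of cells with a Ch25h UMI was 2.80% in control and 20.1% in HDM, and it was 4.55% and 14.1% over the 66 control and 121 HDM cells that had at least 1000 UMIs and were thinned to that number. The shallower cells, 41 and 18, were left out of the thinned shares. In the same HDM library the 493 T cells had 0 Ch25h UMIs, which allows a level of up to 3.96 CPM, at a median of 1327 UMIs per cell against 3056 in Macrophage 8. In HDM, the 3 cells with at least 10 UMIs of the gene held 35.0% of its UMIs.

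Idi1 was at 42.71 CPM in control, 83.38 CPM in APM, 91.18 CPM in HDM+APM and 135.0 CPM in HDM, 3.16-fold above control in HDM (1.37 to 8.94). Scd1 stood at 28.48 CPM in control and 87.09 CPM in HDM, a 3.06-fold difference (1.11 to 11.8), and Acadl, a long-chain fatty acid dehydrogenase, at 21.36 and 69.67 CPM, a 3.26-fold difference (1.02 to 16.7). These control levels rest on 3 to 6 UMIs, which the width of the intervals shows. In the other direction in Macrophage 8, Cidec was at 128.1 CPM in control, 83.38 CPM in APM, 34.45 CPM in HDM+APM and 28.31 CPM in HDM. HDM was 4.53-fold below control (2.10 to 10.05), and both libraries that received HDM were below both that did not. Sqle, which epoxidises squalene, was 2.97-fold lower in HDM (1.13 to 7.71), at 23.95 against 71.19 CPM. Fdps, which makes farnesyl diphosphate, was at 63.14 CPM against 128.1 CPM.

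The pooled levels of Lpl, Abcg1, Plin2 and Lipa were near each other in the 4 libraries of this cluster. In the order control, HDM, APM and HDM+APM, Lpl was at 1374, 1587, 1456 and 1157 CPM, Abcg1 at 469.9, 452.9, 392.6 and 395.1 CPM, Plin2 at 533.9, 483.4, 580.2 and 411.3 CPM, and Lipa at 291.9, 243.9, 281.4 and 226.9 CPM. No pair of these libraries that was compared differed by 1.5-fold in the pooled level of any of these genes, although for HDM against control Lipa (-0.90) and Abcg1 (-0.63) were lower after thinning to 1000 UMIs. Lpl was spread differently over cells. Its median CPM per cell was 1425 in control, 688.3 in HDM, 1139 in APM and 248.7 in HDM+APM. In HDM the 27 cells with at least 10 Lpl UMIs held 68.2% of its UMIs and the other cells were at 690.9 CPM, and in HDM+APM 24 cells held 75.8% and the others were at 417.4 CPM. In control, where cells were shallower, no cell reached 10 Lpl UMIs. Depth and summed marker lists did differ between the libraries. Median UMIs per Macrophage 8 cell were 1167 in control, 3056 in HDM, 1182 in APM and 4849 in HDM+APM. The summed alveolar macrophage list, which holds Cidec, was at 8749, 38807, 7570 and 36393 CPM in the same order. The classical monocyte list was at 5418, 34635, 4954 and 33528 CPM, and the red blood cell list at 377.3, 6195, 21530 and 42.55 CPM. Chil3 is in both the alveolar macrophage and the classical monocyte list, so these sums are not independent of each other. The part of depth and of these lists in the differences was not tested.

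In Macrophages 1 to 7, 9 and 10, the HDM library had 60 cells and control 3775, and 37 of the 38 genes were measured. Of these 3 were higher in HDM, against 11.4% of all genes, and 9 were lower, against 9.18% of all genes. The higher genes were Scd1, Ch25h and Abca1. Scd1 was at 91.42 CPM in HDM and 33.74 CPM in control, 2.71-fold higher (1.72 to 4.08), and Ch25h at 99.04 and 49.88 CPM, 1.99-fold higher (1.29 to 2.93). Both were also higher in Macrophage 8. Abca1 was at 64.75 CPM against 37.43 CPM, with an interval that reached 1.00.

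The lower genes were mostly of sterol synthesis. Of the 10 sterol genes 5 were lower (Idi1, Fdps, Sqle, Fdft1 and Hmgcs1) and none was higher. A negative log2 ratio was found for 9 of them, beside 4845 of all 10358 genes measured. Their median was -0.53, beside 0.04 over all genes measured. Idi1 was at 45.71 CPM in HDM and 121.7 CPM in control, 2.66-fold lower (1.52 to 5.16). Fdps was at 49.52 and 113.6 CPM, 2.29-fold lower (1.34 to 4.32), and Hmgcs1 at 118.1 and 194.9 CPM. These HDM levels rest on 12, 13 and 31 UMIs. Sterol synthesis genes outside the 38, from a wider list, had the same direction: 9 of 17 measured were lower and 0 were higher, their median was -0.59, and Msmo1, an enzyme of late cholesterol synthesis, was at -0.98. With cells thinned to 1000 UMIs, Fdps (-0.98) and Fdft1 (-1.03) were still lower, Idi1 (-0.53) was within 1.5-fold, and Hmgcs1 (0.13) and Sqle (0.10) were no longer below control. The other lower genes were Cidec, at 49.52 against 129.6 CPM, Apoc1 (3 UMIs in HDM), Pltp and Acaca (1 UMI in HDM).

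Lpl was at 2480 CPM in HDM and 1822 CPM in control, Abcg1 at 746.6 and 509.0 CPM, and Lipa at 434.2 and 613.8 CPM, all within 1.5-fold. The red blood cell list summed to 2049 CPM in HDM and 247.5 CPM in control. The alveolar macrophage list summed to 37561 and 11363 CPM and the classical monocyte list to 31482 and 6866 CPM, and both lists hold Chil3. The part of these lists in the sterol values was not tested. The HDM cells were also spread differently over the clusters: Macrophages 2, 3 and 5 supplied 7, 9 and 17 of the 60 HDM cells and 566, 906 and 560 control cells. With control weighted to the HDM library's cluster shares, Idi1 (-1.21), Fdps (-0.89), Sqle (-0.76) and Fdft1 (-0.62) were still lower and Hmgcs1 (-0.54) was within 1.5-fold. The 46 HDM+APM cells of this class had Lpl at 1215 CPM, Abcg1 at 386.6 CPM, Lipa at 449.7 CPM, Hmgcs1 at 201.2 CPM and Ch25h at 146.0 CPM. The plot of library ratios sets all 6 comparisons beside each other.

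**Figure D3:**
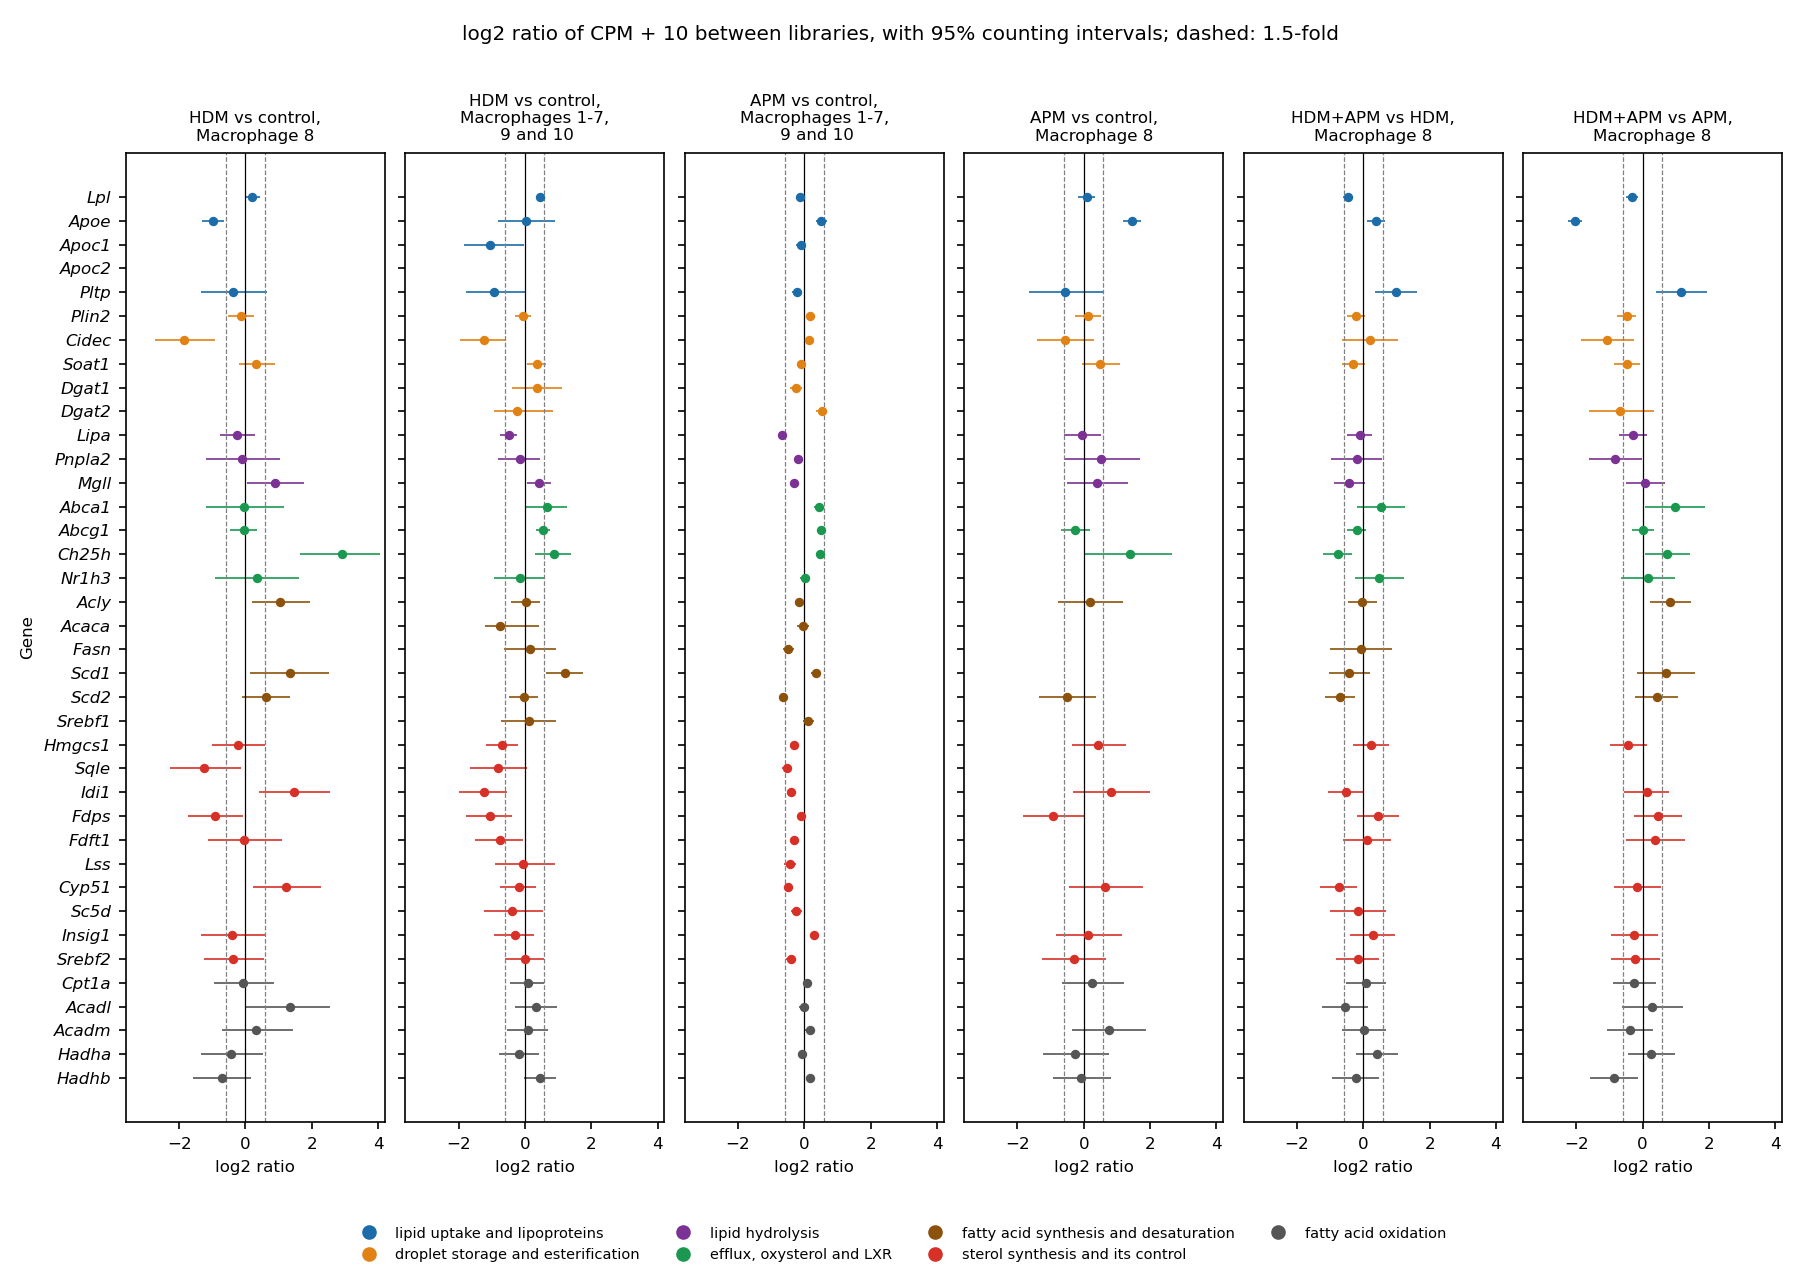
Log2 ratio of CPM + 10 between libraries for the measured lipid genes, 1 panel per comparison, with genes coloured by function. Bars are 95% counting intervals and dashed lines mark 1.5-fold. The APM against control panel for Macrophages 1 to 7, 9 and 10 has the narrowest bars and only Lipa (-0.68) and Scd2 (-0.63) past the line, while the Macrophage 8 panels have wide bars.

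The APM library against control in Macrophages 1 to 7, 9 and 10 was the most deeply sampled comparison, with 3492 and 3775 cells, and its differences were small. Of 37 genes measured 0 were higher, against 0.763% of all genes, and 2 were lower, against 0.505% of all genes. Lipa was at 379.2 CPM in APM and 613.8 CPM in control, 1.62-fold lower (1.56 to 1.68). Scd2, a desaturase, was at 96.34 and 154.7 CPM, 1.61-fold lower (1.49 to 1.73). The largest positive ratios were those of Dgat2, which makes triglyceride (0.52), Abcg1 (0.51), Apoe (0.51) and Ch25h (0.49). With a pseudocount of 1 CPM in place of 10, 2 genes were higher, against 3.46% of all genes, and 5 were lower, Lipa and Scd2 among them, against 2.77% of all genes.

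Over all 10884 genes measured, 5635 had a positive and 5249 a negative log2 ratio. By function, 4 of 4 efflux genes had a positive log2 ratio, with a median of 0.46. Abcg1 was 1.44-fold higher (1.39 to 1.48), at 731.3 against 509.0 CPM. All 3 hydrolysis genes and 9 of 10 sterol genes had a negative ratio, the sterol genes with a median of -0.35, beside 0.01 over all genes. The exception was Insig1, at 114.5 CPM in APM and 91.73 CPM in control. Of the wider list's 82 measured genes, 0 differed by 1.5-fold in either direction. Among these, 14 of 17 sterol genes had a negative ratio (median -0.20) and 13 of 16 oxidation genes a positive one (median 0.14).

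The red blood cell list summed to 5140 CPM in APM and 247.5 CPM in control in this class, and the epithelial list to 1590 and 292.8 CPM, and their part was not tested. These libraries held different shares of each cluster, and with both libraries weighted to the same cluster shares several ratios changed. The log2 ratio of Abcg1 went from 0.51 to 0.05, that of Lipa from -0.68 to -0.24, that of Scd2 from -0.63 to -0.36, and that of Hmgcs1 from -0.30 to -0.07. Ch25h (0.58), Abca1 (0.50) and Apoe (0.45) stayed near their former values. Insig1 went from 0.29 to 0.64 and was then the only 1 of the 37 genes past 1.5-fold. Fdps (0.13), Fdft1 (0.04) and Sc5d (0.14) were then also positive, while Hmgcs1, Sqle, Idi1, Lss, Cyp51 and Srebf2 stayed negative. Of the efflux genes, Nr1h3 went to -0.16. Thus the Abcg1 difference was nearly absent at equal cluster shares, the Insig1 difference was larger, and the sterol and efflux directions were less uniform. Macrophages 4, 6 and 10 held only 22, 42 and 9 control cells, so their control values in this weighting rest on few cells.

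Within single clusters, 7 held at least 50 alveolar macrophage cells of both libraries: Macrophages 1, 2, 3, 5, 7, 8 and 9. These clusters share the same 2 libraries and are not replicates. Lipa was lower in APM in 7 of 7, with log2 ratios from -0.68 to -0.01 and a median of -0.30. In Macrophage 7 it was at 299.9 CPM in APM and 486.9 CPM in control, and in Macrophage 3 at 650.7 and 805.6 CPM. Plin2 was higher in 7 of 7, by 0.03 to 0.17 on the log2 scale, and Pltp was lower in 7 of 7. Abcg1 had no common direction, with 4 clusters higher and 3 lower (-0.27 to 0.38).

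Insig1 was higher in 6 of 7 clusters and by 1.5-fold in 3. It was at 194.8 CPM in APM and 102.0 CPM in control in Macrophage 2, 230.5 and 119.4 CPM in Macrophage 3, and 212.1 and 94.13 CPM in Macrophage 9. These were also the 3 macrophage clusters of highest Insig1 level over all cells. The other sterol genes were lower or mixed. Sqle was lower in 6 of 6 clusters where it was measured, Lss, which closes the sterol ring, in 4 of 4, and Srebf2 in 6 of 7. Fdps was higher in 4 of 7 (median 0.25), Sc5d in 3 of 6 and Cyp51 in 3 of 7, in 2 of them by 1.5-fold. Fdps, Sc5d and Cyp51 were each also lower by 1.5-fold in 1 cluster, at -0.93, -0.77 and -1.75. The 2 desaturase genes also parted, with Scd1 higher in 5 of 5 and Scd2 lower in 6 of 7. Ch25h was higher in 5 of 6 clusters. Fasn, the fatty acid synthase, was lower in 5 of 5.

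**Figure D4:**
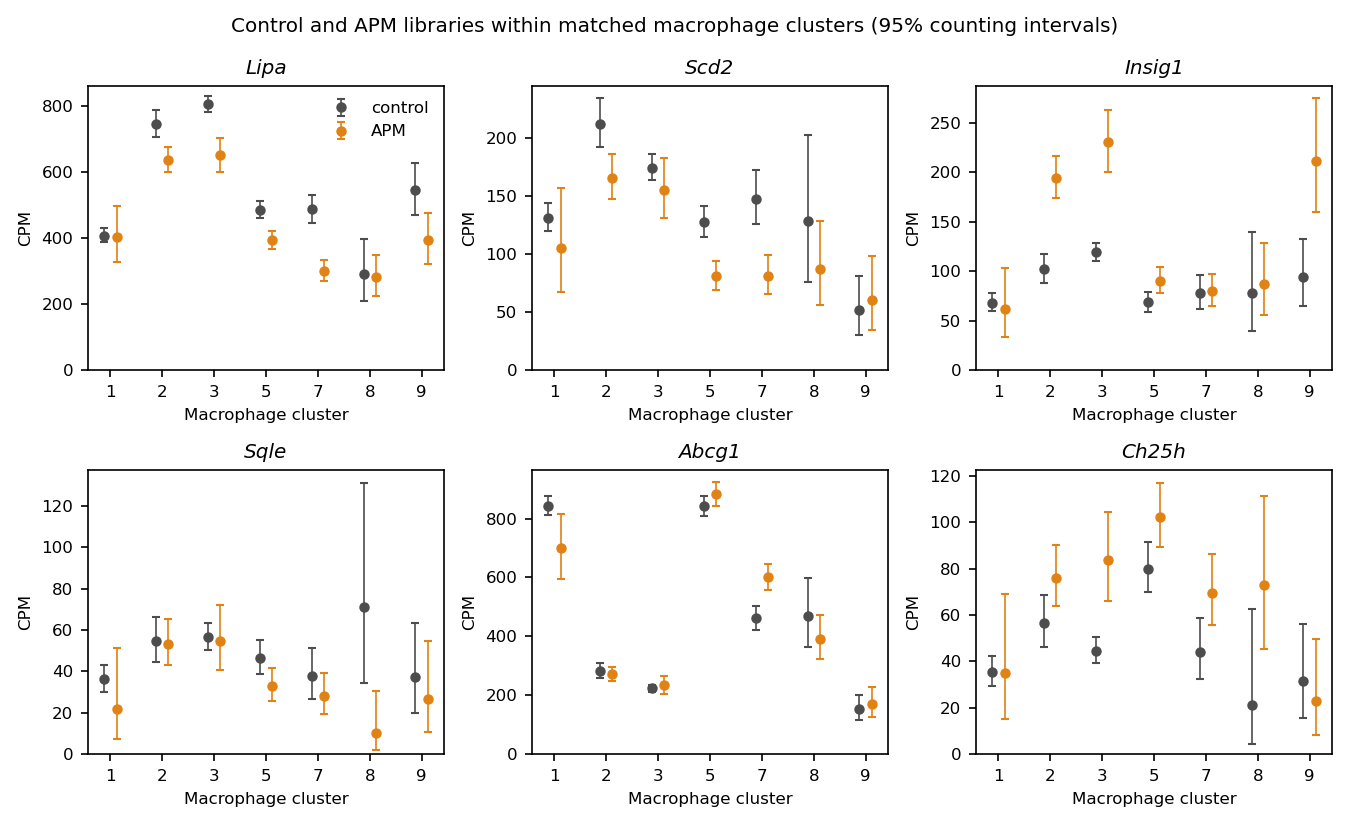
Levels (CPM) of Lipa, Scd2, Insig1, Sqle, Abcg1 and Ch25h in control and APM cells of 7 macrophage clusters that hold at least 50 cells of each library. Points are summed UMIs with 95% counting intervals. Lipa lies lower in APM in all 7 clusters, and Insig1 lies higher by 1.5-fold in Macrophages 2, 3 and 9.

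In Macrophage 8, APM against control, 23 of the 38 genes were measured. Of these 5 were higher, against 10.9% of all genes, and 1 was lower, against 10.8% of all genes. The higher genes were Apoe, Ch25h, Idi1, Acadm and Cyp51, and the lower gene was Fdps. Apoe was at 2352 CPM in APM and 854.3 CPM in control, 2.75-fold higher (2.26 to 3.37). Ch25h was 3.42-fold higher (1.02 to 17.9). Cyp51, Idi1 (0.777 to 5.84) and Acadm (0.766 to 4.95) had intervals of the fold that held 1, so at this depth those differences were within counting error. Fdps was at 62.54 CPM in APM and 128.1 CPM in control, 2.05-fold lower (1.01 to 4.18). The median over the 23 genes was 0.13, beside 0.01 over all genes. In this cluster the red blood cell list was at 21530 CPM in APM and the epithelial list at 2171 CPM, against 377.3 and 505.5 CPM in control, and their part was not tested. Of the other lipid genes of the wider list, 3 of 29 measured were higher and 4 lower.

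Mice given both agents were compared with mice given 1 of them in Macrophage 8. Against HDM, 30 genes were measured, of which 1 was higher, against 7.09% of all genes, and 3 were lower, against 11.0% of all genes. Pltp was at 113.5 CPM in HDM+APM and 52.26 CPM in HDM, 2.17-fold higher (1.32 to 3.66). Ch25h was 1.76-fold lower (1.27 to 2.44), at 127.7 against 224.3 CPM. Cyp51, a demethylase of cholesterol synthesis, was at 72.94 against 128.5 CPM, and Scd2 at 119.5 against 200.3 CPM. The median over the 30 genes was -0.13, beside -0.07 over all genes. All 3 hydrolysis genes and all 4 measured fatty acid synthesis genes had negative ratios, of which only Scd2 was past 1.5-fold. Over all 5164 genes measured, 2867 had a negative ratio. Of the wider list, 2 of 50 measured were higher, with Pparg, a regulator of lipid storage genes, at 0.68, and 6 were lower, with Cd36, a fatty acid receptor, at -0.71.

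Against APM, 29 genes were measured, with 5 higher, against 13.7% of all genes, and 5 lower, against 14.9% of all genes. The higher genes were Pltp, Abca1, Acly, Ch25h and Scd1. Pltp was at 113.5 CPM in HDM+APM and 45.17 CPM in APM, 2.51-fold higher (1.36 to 5.01), so it was above both single exposures. The cavity macrophage list, with 7 of 7 genes detected, was at 226.9 CPM in HDM+APM Macrophage 8 cells, against 8.709 CPM in HDM and 6.949 CPM in APM, and the B cell list at 208.7, 21.77 and 0 CPM. Their part in the Pltp level was not tested. Abca1 was at 64.84 against 27.79 CPM, 2.33-fold higher (1.05 to 5.86). The lower genes were Apoe, Cidec, Hadhb, Pnpla2, the lipase of droplet triglyceride, and Dgat2. Cidec was at 34.45 against 83.38 CPM, 2.42-fold lower (1.25 to 4.80). Apoe was at 565.3 CPM against 2352 CPM, 4.16-fold lower (3.61 to 4.80), an interval that does not cover variation between cells. The share of cells with an Apoe UMI ran the other way, at 51.4% in HDM+APM and 11.2% in APM. So did its level outside the cells with at least 10 Apoe UMIs, at 233.5 and 163.8 CPM. The median over the 29 genes was -0.17, beside -0.01 over all genes. Of the wider list, 6 of 43 measured were higher, led by Stard4, a sterol carrier (1.47), and 5 were lower.

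A large part of the Apoe UMIs in Macrophage 8 came from few cells. In control 9 of 107 cells had an Apoe UMI (8.41%), and the 6 cells with at least 10 held 114 of the gene's 120 UMIs. In APM 23 of 205 cells had 1 (11.2%), and 10 cells held 93.8%. In HDM 47 of 139 cells (33.8%) and in HDM+APM 56 of 109 cells (51.4%) had a UMI, and 6 cells in each held 50.3% and 62.0%. Over the cells with at least 1000 UMIs, thinned to that number, the shares were 10.6% of 66 in control, 12.9% of 132 in APM, 23.1% of 121 in HDM and 24.7% of 85 in HDM+APM. This left out 41, 73, 18 and 24 shallower cells. Outside the cells with at least 10 UMIs, Apoe was at 47.2 CPM in control, 163.8 CPM in APM, 225.4 CPM in HDM and 233.5 CPM in HDM+APM.

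The Macrophage 8 cells rich in Apoe also differed in other genes. The complement and macrophage genes C1qa, C1qb, C1qc, Csf1r and Ms4a7 summed to 9251, 7284, 7832 and 3386 CPM in them, in control, HDM, APM and HDM+APM, against 519.0, 745.3, 507.0 and 788.6 CPM in the remaining Macrophage 8 cells. Without the cells of at least 10 Apoe UMIs, Apoe was at 163.8 CPM in APM, 225.4 CPM in HDM and 47.2 CPM in control. This cut uses the Apoe count itself, and 10 UMIs are a smaller share of a deeper cell. Median UMIs per Macrophage 8 cell were 1167 in control, 1182 in APM and 3056 in HDM, so no direction is drawn from these values. Over all cells, the log2 ratio of Apoe for HDM against control went from -0.98 to 0.06 when each cell had equal weight. Among the cells named classical monocyte, 237 of 308 (77.0%) had an Apoe UMI, against 51.4% in Macrophage 8 of the same library. The UMIs were concentrated there too: 55 of the 308 cells had at least 10 and held 77.6% of them.

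**Figure D5:**
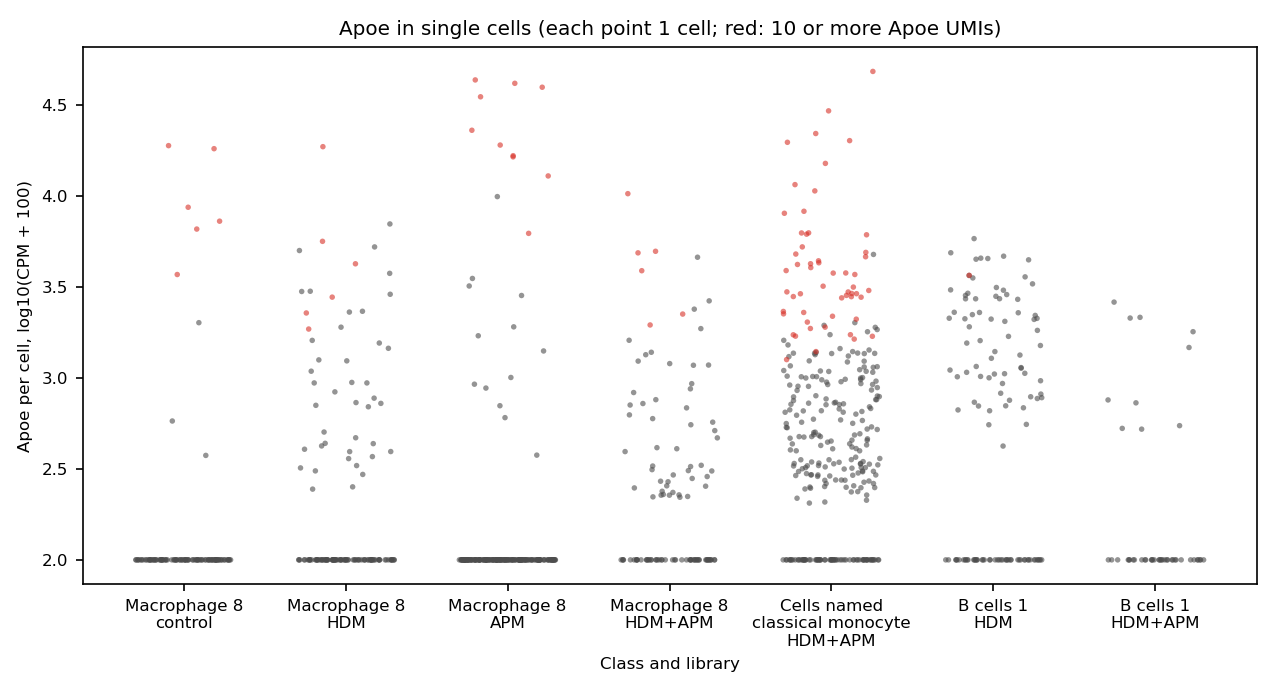
Apoe per cell, as log10(CPM + 100), in Macrophage 8 of each library, in the cells named classical monocyte and in B cells 1 of 2 libraries. Each point is 1 cell and red points have at least 10 Apoe UMIs. In control and APM most Macrophage 8 cells lie at 0 with 6 and 10 red cells above them, while most of the cells named classical monocyte lie above 0.

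Apoe in B cells 1 differed between the libraries. In HDM 71 of 119 cells (59.7%) had an Apoe UMI, at 1144 CPM, while in HDM+APM 10 of 45 cells had 1, at 229.3 CPM. The same complement and macrophage genes summed to 17.25 CPM in these HDM cells and to 286.7 CPM in these HDM+APM cells. Their part in the Apoe levels was not tested. T cells of the same libraries are set beside the B cells: 3.25% of HDM T cells had an Apoe UMI, at 29.05 CPM, and 14.0% of HDM+APM T cells, at 82.0 CPM. Median UMIs per cell were 1327 in HDM T cells and 1382 in HDM B cells, and 1850 and 5226 in HDM+APM. Over both B cell clusters the shares were 62.5% in HDM and 36.5% in HDM+APM, and in cells thinned to 1000 UMIs they were 54.0% and 11.8%, against 3.00% and 9.85% in T cells, without 15 and 0 B cells and 126 and 4 T cells that were shallower. The pooled B cell share in HDM was thus well above that of T cells, and in HDM+APM it was near it after thinning. Of these pooled cells, 119 of 128 in HDM were B cells 1 and 404 of 449 in HDM+APM were B cells 2. Library and B cell cluster thus cannot be told apart in the pooled shares. In B cells 1 of HDM+APM alone, the level of 229.3 CPM was above the 82.0 CPM of T cells. Scd1 in B cells 1 was at 253.0 CPM in HDM and 229.3 CPM in HDM+APM, close to each other in both libraries.

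The cells named classical monocyte and Macrophage 8 could be set side by side within 1 library, HDM+APM. The former held Apoe at 1421 CPM against 565.3 CPM, Acly at 434.8 against 168.2 CPM, Pltp at 178.7 against 113.5 CPM and Acaca at 58.6 against 18.24 CPM. They were lower in Lpl, at 78.67 against 1157 CPM, in Abcg1, at 26.2 against 395.1 CPM, in Ch25h, at 3.7 against 127.7 CPM, and in the sterol genes Hmgcs1, at 14.6 against 113.5 CPM, and Idi1, at 3.7 against 91.18 CPM. Abca1 was near in level, at 48.2 and 64.84 CPM. The cells named classical monocyte therefore paired high Apoe and Pltp with low Lpl, Abcg1 and sterol genes. The submitters' clusters were made from the same expression values, so these differences are a description.

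Nr1h3, which encodes LXR alpha, was between 33.3 and 56.4 CPM in the macrophage clusters and at most 13.2 CPM in other cell types. Apoc1, a lipoprotein component, was between 9.8 and 49.8 CPM in the macrophage clusters. Srebf1, the regulator of fatty acid synthesis genes, was between 13.2 and 34.9 CPM in them and Fasn at most 31.8 CPM. Lss was at most 20.2 CPM and Sc5d at most 43.4 CPM in any cell type, both highest in Macrophage 2, as were Cyp51 at 150.8 CPM and Fdft1, the squalene synthase, at 111.8 CPM.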

How the data were processed

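The data are single-cell RNA-seq of mouse lavage cells, as UMI counts per gene and cell in 1 matrix, with a table of the submitters' cell type, library and treatment per cell. The authors deposited raw UMI counts, and per the submitters' processing notes Cell Ranger 2.2.0, Seurat 2.3.4 and mm10 were used, in roles that the notes do not assign. Filters on cells and genes and the handling of doublets before deposit are not stated in the sources used here, and no cell was removed and no doublet caller was run here. Cell types are the authors' deposited annotation. Libraries were matched to groups by the labels, with 1 library per group, so no test between groups was made.

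UMIs were summed per cluster, class and library and divided by total UMIs (CPM). Python 3.11.15 with numpy 2.4.6, scipy 1.17.1 and pandas 2.3.3 computed exact Poisson intervals of levels, conditional exact binomial intervals of ratios and Clopper-Pearson intervals of shares, all at 95%, and log2 ratios with a pseudocount of 10 CPM. Macrophage-cluster cells that the coarse annotation types as epithelial (23 cells) count in cluster levels and not in comparisons. Depth ranged from 1920648 to 15170333 UMIs per library. The procedure was tested on simulated counts with known changes. The members and gene lists were chosen with earlier results of these data known. By rule, the 3 members with most UMIs in each function were described in every library, members past 1.5-fold were named, up to 4 per direction with full values, and other lipid genes were counted by list and named only where past 1.5-fold. Alternatives were the pseudocount (1 and 50 CPM), no UMI minimum, scaling by TMM (edgeR 4.0.16 in R 4.3.3), cells thinned to 1000 UMIs, a mean over cells, a 2-fold threshold, subtraction of 5% free RNA, intervals that exclude 1, all alveolar macrophages as 1 class, equal cluster shares and, added after the data were seen, control weighted to the HDM cluster shares and no cells with a barcode found in 2 libraries. Promoters came from RefSeq (GRCm38.p6) and gene positions from GENCODE vM21.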

Additional observations from a re-analysis of the deposited data

Results flagged for a closer look

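Ratios of 3 genes pointed in opposite directions under the same contrast in 2 settings, and in each case the difference was not tested. Ch25h, which makes 25-hydroxycholesterol, had a log2 ratio of 1.40 for APM against control in Macrophage 8 without HDM, and of -0.77 for HDM+APM against HDM in the same cluster. Cyp51, a sterol demethylase, had 0.64 and -0.74 for the same pair. Idi1, an isomerase of the mevalonate pathway, had 1.46 for HDM against control in Macrophage 8 and -1.24 in Macrophages 1 to 7, 9 and 10. The control values of the 3 genes in Macrophage 8 rest on 3, 7 and 6 UMIs, and the counting interval of the Cyp51 fold for APM against control held 1.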

How the results depend on the processing

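No paired analysis was possible because each group is 1 library. The pooled mice, the low Macrophage 8 counts of control (140468 UMIs) and the 60 HDM cells of the other macrophages limit the precision. Of 140 alternative counts of genes past the threshold, 91 were within 1.5 times the reported count and 49 were not. Of 2124 alternative log2 ratios, 2007 moved by less than their counting error and 106 by more. A further 11 changed sign, counted only for genes past 1.5-fold in the main comparison. Sign changes of other genes are among the former counts and were not counted apart. Leaving out cells with shared barcodes changed no count. TMM scaling shifted the log2 ratios of genes far above the pseudocount by about 0.22, -0.20, -0.03, 0.13, 0.07 and 0.12. The order is HDM against control in Macrophage 8 and in the other macrophages, APM against control in the other macrophages and in Macrophage 8, and HDM+APM against HDM and against APM. Genes of lower level shifted by less, because the pseudocount was added after scaling. Percentages in parentheses are the shares of all genes measured under the same alternative. The cause of the changes below was not tested unless fewer genes, fewer UMIs or a stricter limit is part of the alternative.

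For HDM against control in Macrophage 8 (8 higher and 5 lower), 9 were lower with no UMI minimum (22.5%), 5 were higher (23.2%) and 2 lower (17.5%) after thinning, 8 were lower by the mean over cells (19.1%), 2 were lower at 2-fold (5.65%), and 3 were higher (8.45%) and 8 lower (5.99%) with all alveolar macrophages as 1 class. Its median went to 0.31 after thinning. Apoe went to 0.061 by the mean over cells and to 2.88 as 1 class, and Idi1 to -0.22 as 1 class. For HDM against control in the other macrophages (3 and 9), 1 was higher (1.86%) and 3 lower (1.12%) with a pseudocount of 50 CPM, 5 were higher after thinning (21.9%), and 1 was higher (2.60%) and 4 lower (2.06%) at 2-fold. Hmgcs1 went to 0.13 and Sqle to 0.10 after thinning, and Pltp to 0.017 as 1 class.

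For APM against control in the other macrophages (0 and 2), 2 were higher (3.46%) and 5 lower (2.77%) with a pseudocount of 1 CPM, 1 was lower with 50 CPM (0.147%), 1 was higher (0.931%) and 4 lower (0.691%) after thinning, 0 were lower at 2-fold (0.00919%), 1 was higher as 1 class (0.787%), and 1 was higher (0.551%) and 0 lower (0.671%) at equal cluster shares. For APM against control in Macrophage 8 (5 and 1), 3 were lower with a pseudocount of 1 CPM (12.8%), 2 were higher with 50 CPM (5.07%), 5 were lower with no minimum (21.7%), 3 were higher after thinning (13.6%), 2 were lower by the mean over cells (11.9%), 2 were higher (3.01%) and 0 lower (2.43%) at 2-fold, 2 were lower with free RNA subtracted (11.7%), 2 were higher with intervals that exclude 1 (3.31%), and 1 was higher (0.787%) and 2 lower (0.494%) as 1 class. As 1 class the median went to -0.11, Idi1 to -0.38 and Cyp51 to -0.49.

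For HDM+APM against HDM (1 and 3), 2 were higher with a pseudocount of 1 CPM (10.3%), 1 was lower with 50 CPM (2.59%), 3 were higher with no minimum (8.60%), 2 were higher with TMM (8.91%), 0 were higher after thinning (9.81%), 3 were higher (11.7%) and 5 lower (15.6%) by the mean over cells, 0 were higher (1.55%) and 0 lower (2.48%) at 2-fold, and 4 were higher (5.27%) and 1 lower (8.03%) as 1 class. For HDM+APM against APM (5 and 5), 2 were higher (5.88%) and 2 lower (5.99%) with a pseudocount of 50 CPM, 2 were higher after thinning (15.3%), 1 was higher (5.03%) and 2 lower (4.24%) at 2-fold, and 3 were lower as 1 class (6.13%). Dgat2 went to 0.30 and Scd1 to -0.092 by the mean over cells. As 1 class the median went to 0.07 and Apoe to 1.99.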

Other observations

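Some lipid gene levels outside the macrophages varied by library, and none was compared further because of the small numbers of cells. Plin2 in granulocyte-like cells was at 509.2 CPM in control (3 UMIs), 394.8 CPM in HDM, 507.3 CPM in APM and 142.6 CPM in HDM+APM. Dgat1 in T cells was at 58.1 CPM in HDM and 99.08 CPM in HDM+APM. Apoe in B cells 2 was at 2029 CPM in the 9 HDM cells and at 95.75 CPM in the 404 HDM+APM cells, the same direction as in B cells 1.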
